A study of Mus musculus with 9 samples.

Results

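The cells described here are the microglia of the brainstem of mice under normal sleep (NS). They are the 549 cells that the study's own cell list names as microglia of the brainstem NS library, out of 1999 cells of that library held in the list used here, 3731 cells of the library in the deposited table and 29571 cells of the whole series. The list was matched to the table by cell barcode, and its barcodes run in alphabetical order, so the listed cells are a slice of the library by barcode sequence. The mice were males of 9 to 11 weeks, of strain C57BL/6 in the labels and wild-type C57BL/6 J in the paper. They were kept on a light-dark cycle, slept freely and were taken at ZT12, which is lights off. The series also holds brainstem, cortex and hypothalamus from mice kept awake for 12 h (SD) and from mice given recovery sleep after the same 12 h (RS), all collected at ZT12, and cortex and hypothalamus under NS. The labels put the recovery at 24 h in one passage and at 12 h in another. Each of the 9 libraries was made from papain-dissociated tissue of 3 pooled mice and captured with 10x Genomics Chromium version 2 chemistry, after removal of myelin with beads. With the part of the study's cell list used here, the other 8 libraries could not be matched to a region or sleep group. For this reason, and because the microglia come from 1 library, no test between groups was made and no p-value is given. Every interval below is an exact 95% interval that covers counting error only.

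The 549 microglia held 507278 unique molecular identifiers (UMIs, each a tag for 1 captured transcript molecule). The median microglial cell held 796 UMIs (range 495 to 4150) and 457 detected genes. Mitochondrial genes took 3.68% of the UMIs, ribosomal protein genes 14.0% and hemoglobin genes 0.279%. Of the 549 barcodes, 23 also occurred in another library, from 1 to 7 in each of the other 8. Doublets were neither called nor removed. Levels are UMIs per 1000000 UMIs of the group (CPM). UMIs count transcript ends and are not divided by transcript length, so levels are compared between cell groups for the same gene and not between genes.

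Microglia are the resident macrophages of the brain parenchyma, seeded early in development and kept in place by signals from their neighbours such as the ligands of the receptor CSF1R and TGF-beta. Their processes survey the tissue through purinergic receptors such as P2RY12, they take up debris and synaptic material with the help of complement C1q and TREM2, and they release chemokines and cytokines when provoked. A second population of brain macrophages lives at the borders, in the perivascular spaces, meninges and choroid plexus. The factor PU.1, encoded by Spi1, is required for both and binds DNA with a GGAA core.

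The markers that name the population were present. Cx3cr1, the receptor for the neuronal chemokine fractalkine, stood at 2651 CPM (95% interval 2512 to 2797) and was found in 83.8% of microglia (80.4% to 86.8%). P2ry12, which senses ADP, stood at 2478 CPM (2343 to 2619) and was found in 84.7% (81.4% to 87.6%). Ccl4, which encodes the chemokine MIP-1 beta, stood at 996 CPM (911 to 1086), but was found in only 16.8% of the cells (13.7% to 20.2%). Cx3cr1 and P2ry12 therefore mark most cells of the group, whereas Ccl4 marks a minority. Of the 92 cells with Ccl4, 33 held 1 UMI and 16 held 10 or more. When every cell was thinned to 500 UMIs, which left out 7 microglia, Cx3cr1 was found in 71.4%, P2ry12 in 69.4% and Ccl4 in 13.8% of microglia. In the endothelial cells of the same library, which should lack these genes, the thinned shares were 3.33%, 2.28% and 1.40%, at an unthinned median of 910 UMIs. Arterial smooth muscle cells, with a median of 1320 UMIs, gave 1.30%, 2.61% and 0.435%. Among the other types of at least 50 cells, macrophages aside, the highest thinned shares were 5.68% for Cx3cr1 in ependymocytes and 10.9% for P2ry12 in the 55 glutamatergic neurons.

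**Figure D1:**
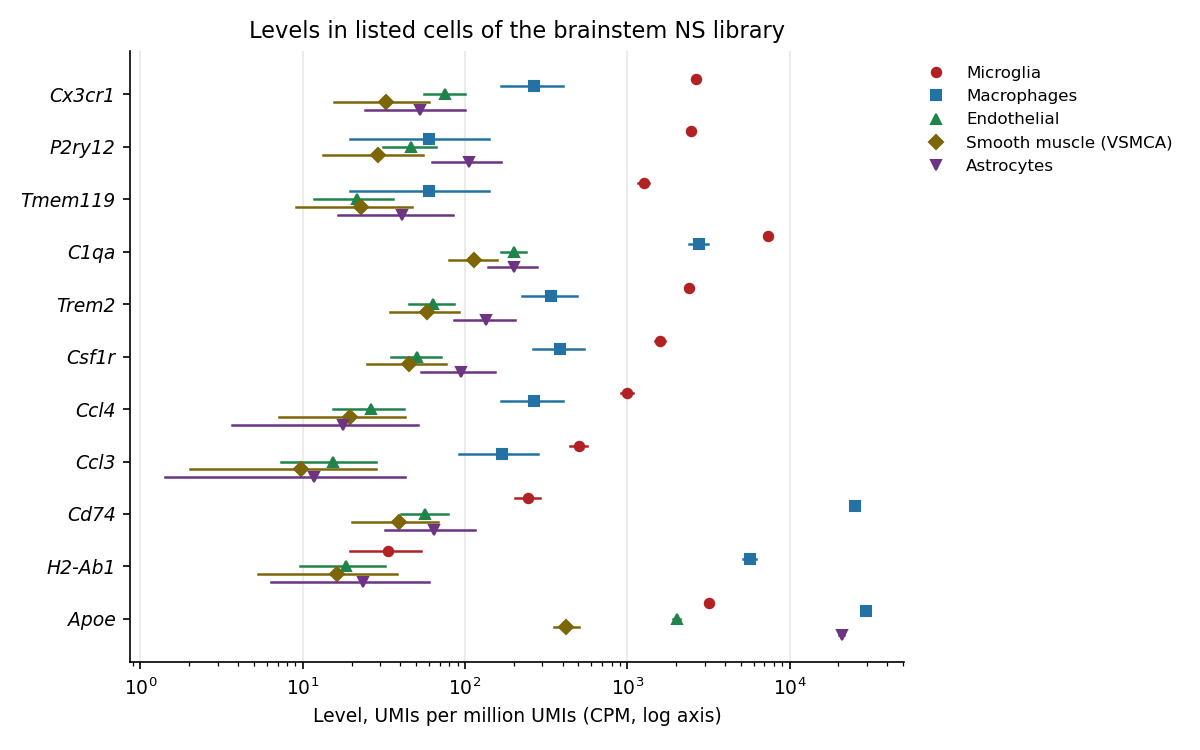
Levels of 11 genes in microglia, macrophages, endothelial cells, arterial smooth muscle cells (VSMCA) and astrocytes of the brainstem NS library, in CPM on a log axis. Points are levels from summed UMIs and lines are exact 95% Poisson intervals (counting error only). Microglia stand above the other 4 types for the genes from Cx3cr1 to Ccl3, while Cd74, H2-Ab1 and Apoe are higher in macrophages.

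The library also carried RNA of other cells. Hbb-bs, a globin of red blood cells, was found in 74.0% of microglia at 1660 CPM, and the 5 erythroid genes together in 90.7% of them. The summed level of 8 endothelial markers was 1520 CPM in microglia against 27815 CPM in endothelial cells, and none of the 8 was at 0. The 8 mural markers summed to 493 CPM against 17947 in VSMCA, the 8 astrocyte markers to 384 against 15973 in astrocytes, the 6 ependymal markers to 108 against 11297 in ependymocytes (EPC), and the 8 neuronal markers to 59.1 against 4252 in glutamatergic neurons. The 8 oligodendrocyte markers summed to 35.5 CPM in microglia, with 3 of them at 0, against 796 CPM in the 43 listed oligodendrocytes, and 11 markers of monocytes, neutrophils and lymphocytes to 19.7 CPM with 5 of them at 0. Of 6 choroid plexus and pituitary genes, 4 were at 0. Over all 18634 genes, 6509 were at 0 in microglia, which is the background for these counts and the next. Of the 12 border macrophage markers, 4 were at 0 in microglia, namely Mrc1, Cd163, Lyve1 and Clec10a, which allows up to 0.546% of cells with a UMI and sets no limit on cells that express them, since Mrc1 was found in only 31.3% of the listed macrophages. The border list summed to 1214 CPM in microglia and 14041 CPM in macrophages, and Lyz2 (670 CPM) and Maf (418 CPM) gave most of the microglial sum.

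Among the genes that set these cells apart, the homeostatic genes of microglia led. Of 9787 genes at 10 CPM or more in microglia or in the other 1450 listed cells, 335 reached 4 times the other cells' level in microglia, which is 3.42%, with 10 CPM added to both levels. Below, a gene that meets this limit is called enriched in microglia. Another 605 of the 9787, or 6.18%, were lower in microglia by the same factor. The study had clustered the cells on these same genes, so this count and the ratios that follow describe the clusters and test nothing. The shares of 3.42% and 6.18% are the background for every count of enriched or lower list members below. List members below 10 CPM in both groups were not tested. The ratio was 43.6 for P2ry12 (35.5 to 54.1), 43.3 for Tmem119 (32.5 to 58.8), 35.5 for Gpr34, a receptor for lysophosphatidylserine (28.7 to 44.3), and 37.2 for the sialic acid-binding lectin gene Siglech (25.2 to 56.9). The lysosomal gene Ctss, which encodes cathepsin S, was 25.4 times as high. Further genes among the 15 with the highest ratio were Cx3cr1, Ly86, Lpcat2, Selplg, Ccl4, Trem2, C1qa, Pld4 and Lgmn.

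Cathepsin S, C1q and P2RY12 are among the best known products of microglia, and the promoters of their genes are shown because PU.1 is a factor these cells depend on. Spi1 itself stood at 309 CPM (263 to 362) in microglia, 21.8 CPM in the other listed cells and 325 CPM in macrophages. The sequences are RefSeq promoter windows of GRCm38.p6, from 250 bases before to 50 after the start of the gene, read 5′ to 3′ on the strand of the gene, with the letters GGAAGT or their reverse complement ACTTCC in capitals. C1qb and C1qc lie on the minus strand in the windows chr4:136886151-136886450 and chr4:136892865-136893164, P2ry12 on the minus strand in chr3:59262936-59263235, and Ctss on the plus strand in chr3:95526536-95526835.
C1qb: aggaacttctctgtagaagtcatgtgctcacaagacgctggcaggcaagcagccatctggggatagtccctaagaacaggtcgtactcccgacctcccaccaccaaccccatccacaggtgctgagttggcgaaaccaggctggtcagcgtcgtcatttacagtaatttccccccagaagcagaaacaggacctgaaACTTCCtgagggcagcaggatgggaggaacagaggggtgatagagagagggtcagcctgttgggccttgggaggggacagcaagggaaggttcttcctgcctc
C1qc: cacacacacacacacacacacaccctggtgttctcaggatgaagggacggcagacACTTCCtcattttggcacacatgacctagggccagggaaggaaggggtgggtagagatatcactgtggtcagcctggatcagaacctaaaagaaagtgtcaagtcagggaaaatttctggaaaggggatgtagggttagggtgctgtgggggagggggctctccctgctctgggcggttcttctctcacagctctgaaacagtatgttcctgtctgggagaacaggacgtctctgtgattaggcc
P2ry12: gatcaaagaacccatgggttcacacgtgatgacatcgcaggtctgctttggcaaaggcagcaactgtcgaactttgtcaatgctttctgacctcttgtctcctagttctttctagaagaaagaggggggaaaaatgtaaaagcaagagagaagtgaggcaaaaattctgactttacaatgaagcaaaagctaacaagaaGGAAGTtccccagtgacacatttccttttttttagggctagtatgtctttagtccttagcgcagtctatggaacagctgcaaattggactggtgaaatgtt
Ctss: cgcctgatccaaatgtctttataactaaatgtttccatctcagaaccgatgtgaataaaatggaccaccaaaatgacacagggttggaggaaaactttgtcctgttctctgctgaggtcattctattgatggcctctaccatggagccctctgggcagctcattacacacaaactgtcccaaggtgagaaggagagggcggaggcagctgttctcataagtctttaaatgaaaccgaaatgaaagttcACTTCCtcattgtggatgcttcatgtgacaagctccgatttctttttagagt

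The match begins at base 198 of the window in C1qb, 56 in C1qc, 200 in P2ry12 and 249 in Ctss. The windows shown all hold a match, unlike most windows of the enriched genes, whose shares follow. In C1qc and Ctss it is part of the longer run GAGGAAGT, on the opposite strand. GGAAGT was searched on both strands and occurs in 23.8% of all 32851 promoter windows, and GAGGAAGT, which contains it, in 3.20%. Of the 335 enriched genes, 248 had a window, of which 45.2% held GGAAGT and 12.5% GAGGAAGT. Among the 7489 tested genes with a window, the shares were 32.7% and 3.89%. Of the 15 genes with the highest ratio, 9 had a window and 4 of these held GGAAGT. The match of letters is a description of the sequence and shows no binding. No window was at hand for C1qa, Tmem119, Gpr34 or Ccl4.

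The 20 genes with the most UMIs, mitochondrial and ribosomal genes left out, took 25.8% of all UMIs of microglia. The nuclear noncoding RNA Malat1 took 7.25% and Cst3, which encodes the protease inhibitor cystatin C, 7.04%. Cst3 was found in 100% of the cells, at 70419 CPM (69691 to 71153) against 5890 CPM in the other listed cells. Actin-related genes (Tmsb4x and Actb), the ferritin genes Fth1 and Ftl1, the tetraspanin gene Cd81, Itm2b, B2m, the adaptor genes Tyrobp and Fcer1g, and the lysosomal proteases Ctss, Lgmn and Ctsd were further members of the 20. The 3 chains of complement C1q took 2.42% of the UMIs together. C1qb was found in 99.8% of microglia at 9078 CPM (8818 to 9344), C1qc in 99.5% at 7733 CPM (7493 to 7979) and C1qa in 99.3% at 7359 CPM (7125 to 7599). The 3 genes lie side by side on the minus strand of chromosome 4 within 18.7 kb (GENCODE vM21, GRCm38).

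Of the 20 homeostatic genes listed for microglia, all were at 100 CPM or more and 19 were enriched. The exception was Sparc, a matricellular protein gene, at 1614 CPM in microglia, 1836 CPM in astrocytes and 938 CPM in endothelial cells. Members of the list with fewer UMIs were still several times higher than in the other cells. The fructose transporter gene Slc2a5 was at 173 CPM (139 to 214) against 2.87 CPM, and Sall1, a transcription factor that holds microglia in their identity, at 142 CPM (111 to 179) against 10.9 CPM.

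Among 16 transcription factor genes of the lineage, 8 were enriched, among them Spi1, Irf8, Sall1, Sall3, Runx1, Ikzf1 and Cebpa. Irf8 was at 363 CPM against 20.7, Ikzf1 at 164 against 5.17 and Runx1 at 106 against 9.19. Mef2c, at 1021 CPM (935 to 1113), stood at 276 CPM in the other cells and fell just short of the limit. Etv5 (37.5 against 14.9 CPM) and Smad3 (15.8 against 9.76 CPM) differed less.

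Of 10 purinergic genes 5 were enriched: P2ry12, P2ry13, P2ry6, Adora3 and Gpr34. P2ry13 was found at 272 CPM (229 to 321), the UDP receptor gene P2ry6 at 231 CPM (191 to 276), P2rx4 at 78.9 CPM and P2rx7 at 43.4 CPM. Entpd1, which encodes the ectonucleotidase CD39, was at 146 CPM, and the adenosine receptor gene Adora3 at 76.9 CPM against 2.30 CPM in the other cells. Neither the adenosine receptor gene Adora2a nor Nt5e, which encodes CD73, had a UMI in the 549 cells, and the limit that 3 counts allow is 5.91 CPM.

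Of 23 receptors for chemokines, growth factors and cytokines, 11 were enriched. Csf1r, whose signal keeps microglia alive, stood at 1593 CPM (1485 to 1707) and was found in 69.6% of the cells. Tgfbr1 stood at 828 CPM (751 to 911) and Tgfbr2 at 103 CPM, and the interferon gamma receptor gene Ifngr1 at 753 CPM. Il1r1 and Ccr1 had no UMI in microglia.

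The ligands of these receptors were found mostly in other cells of the library. Cx3cl1, the ligand of CX3CR1, was at 896 CPM in glutamatergic neurons, of which 45.5% held a UMI, and at 5.91 CPM in microglia. Il34, a ligand of CSF1R, was at 324 CPM in pericytes (239 to 430) and 68.2 CPM in VSMCA. It had no UMI in the 55 glutamatergic neurons, where the upper limit of 70.3 CPM lies above the VSMCA level. Csf1, the other ligand, was at 21.7 CPM in microglia and at 27.0 CPM or below in every type of at least 50 cells. Tgfb1 was at 146 CPM (115 to 183) in microglia and at 54.1 CPM or below in the 7 other types. Tgfb2 was at 130 CPM in endothelial cells and 1.97 CPM in microglia. Cd200, which restrains myeloid cells, was at 1226 CPM in endothelial cells, and Cd47, the "do not eat" signal read by SIRPA, at 877 CPM in glutamatergic neurons. Of the 2 bridging ligands of the receptors MERTK and AXL, Gas6 was at 364 CPM in EPC and 591 CPM in glutamatergic neurons against 67.0 CPM in microglia, while Pros1 was at 209 CPM in microglia and at 169 CPM or below in the other 7 types. None of the 13 ligand genes was enriched in microglia, and Tgfb2 and Cd200 were lower by a factor of 4 or more. The shares of the 9787 tested genes were 3.42% and 6.18%.

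Of 21 phagocytic receptors and their adaptors, 13 were enriched. Trem2, a lipid receptor, stood at 2405 CPM (2272 to 2544) and was found in 82.5% of the cells, and its adaptor gene Tyrobp stood at 3911 CPM. The Fc receptor gene Fcgr3 was at 1266 CPM, Cd68 at 716 CPM, Sirpa at 365 CPM and Mertk at 193 CPM. Axl, the other receptor of the MERTK family on the list, was at 25.6 CPM against 50.5 CPM in the other cells, and the scavenger receptor genes Cd36 and Msr1 had 3 and 1 UMIs. Besides C1q, the complement list held the receptor genes C5ar1 (148 CPM, against 8.04 in the other listed cells) and C3ar1 (130 CPM, against 6.89), whereas C3 and C4b had 1 UMI each. Of 15 complement genes, 8 were enriched, among them Itgam and Itgb2, which form complement receptor CR3, and Cd59a was lower (15.8 CPM against 161).

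Of 15 genes for pattern recognition, 5 were enriched. They were Ly86, Cd14, Pycard, Tlr7 and Casp1, with Cd14 at 562 CPM and Tlr7, a sensor of RNA, at 80.8 CPM. The receptor genes Tlr2 (39.4 CPM) and Tlr4 (19.7 CPM) and the inflammasome gene Nlrp3 (19.7 CPM) were found in fewer than 5% of the cells. Lysosomal genes were detected throughout, with all 24 members at 10 CPM or more and 13 enriched. The proteases Lgmn and Ctsd stood at 3988 and 3659 CPM, and Grn, which encodes progranulin, at 741 CPM. Among 18 genes of motility and the actin cytoskeleton, 8 were enriched, among them the leukocyte genes Lcp1 (353 CPM) and Coro1a (264 CPM). Of 9 ion channel genes 3 were: Hvcn1, a proton channel, and the potassium channels Kcnk13 and Kcnk6, while the chloride channel gene Clic4 was lower (15.8 CPM against 191).

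Of the genes of class I antigen presentation, B2m stood at 4183 CPM (4007 to 4365) against 1190 CPM in the other listed cells and H2-D1 at 980 CPM against 669, and neither was enriched. The class II peptide-loading genes H2-DMa and H2-DMb1 stood at 404 and 197 CPM against 51.7 and 29.3. The class II chains H2-Ab1, H2-Eb1 and H2-Aa had 17, 11 and 8 UMIs in all 549 microglia. H2-Ab1 was found in 2.73% of microglia, and its level of 33.5 CPM (19.5 to 53.7) lay among those of cells which should lack it, at 33.8 CPM in pericytes, 23.5 CPM in astrocytes and 18.5 CPM in endothelial cells. Cd74, the invariant chain, was at 244 CPM in microglia and at 64.7 CPM or below in the other types of at least 50 cells, macrophages aside. Of the 15 genes of the list, 13 reached 10 CPM in either group. Of these, H2-DMa, H2-DMb1 and Cd86 were enriched and the 3 class II chains were lower by the same factor. The shares of the 9787 tested genes were 3.42% and 6.18%. The lower calls rest on the 67 macrophages, which held 463 of the 494 H2-Aa UMIs of the other listed cells, 472 of 507 for H2-Ab1 and 244 of 263 for H2-Eb1. The transactivator gene Ciita and the costimulator gene Cd40 had no UMI.

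Genes linked to the response of microglia to disease, interferon or division were mixed in level. Of 18 disease-associated genes 16 reached 10 CPM in either group, and 4 of these were enriched, against 3.42% of the 9787 tested genes. The 4 were Trem2, Cd9, Ccl6 and Gpnmb. Cd9 was at 1975 CPM in 74.7% of the cells, but Gpnmb came from 2 cells, and without the cell that held most of it Gpnmb was no longer enriched and 3 genes of the list were. Cst7, Axl, Csf1 and Lgals3 were at 27.6, 25.6, 21.7 and 15.8 CPM, and Itgax had 1 UMI. Igf1 was the 1 member lower by a factor of 4 or more, against 6.18% of the 9787 tested genes. It had no UMI in microglia against 58 in the other listed cells. Of these 58, pericytes held 44 (297 CPM) and the 67 macrophages 10 (120 CPM). Of 17 interferon response genes 15 reached 10 CPM in either group. Of these, 4 were lower by a factor of 4 or more, against 6.18% of the 9787 tested genes, and none was enriched. Bst2 and Ifitm3 were at 173 and 140 CPM, and Ifit1, Ifit3, Isg15 and Irf7 at 21.7 CPM or below, with at least 1 UMI of any of the 17 genes in 34.2% of the cells. Of 15 cell cycle genes, 6 had no UMI: Mki67, Top2a, Ccnb1, Ccnb2, Cdk1 and Birc5. Over all 18634 genes, 6509 had no UMI in microglia.

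At ZT12, the clock genes of the list summed to 881 CPM, of which Bhlhe41 gave 449 CPM (393 to 512). Bhlhe41, also called Dec2, is a repressor of clock-driven transcription and was found in 29.5% of the microglia, at 312 CPM in astrocytes and 29.3 CPM in endothelial cells. Per3 was at 154 CPM, Dbp at 94.6 CPM and Tef at 51.3 CPM. Nr1d1 was at 5.91 CPM against 63.7 CPM in the other cells, Bhlhe40 at 0 against 44.8 CPM, and Arntl at 0 against 1.15 CPM. Of the 19 genes 15 reached 10 CPM in either group. Of these, 5 were lower in microglia by a factor of 4 or more, against 6.18% of the 9787 tested genes, and none was enriched. The glucocorticoid target Tsc22d3 stood at 574 CPM against 594 CPM in the other cells and the kinase gene Sgk1 at 264 CPM against 55.7 CPM. The metallothionein genes Mt1, Mt2 and Mt3 were at 491, 57.2 and 76.9 CPM, and Mt1 was at 299 CPM in VSMCA and 11092 CPM in EPC. Of the 13 glucocorticoid and metallothionein genes, Sgk1 was enriched, while Klf9 and the 3 metallothionein genes were lower by the same factor. The shares of the 9787 tested genes were 3.42% and 6.18%. Of 13 genes of lipid and iron handling, 2 were enriched and 1 was lower, against 3.42% and 6.18% of the 9787 tested genes. The cholesterol carrier gene Npc2 (873 CPM against 209) and the metal transporter gene Slc11a1 (71.0 CPM against 6.89) were enriched. The transferrin receptor gene Tfrc (9.86 CPM against 82.7) was lower. Heat shock genes were within a factor of 4 of the other cells for all 12 members. Hspa1a, the inducible member, was at 260 CPM (218 to 309) against 70.6 CPM.

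The listed macrophages of the same library, 67 cells with 83040 UMIs and a median of 1133 UMIs, are the closest relatives of microglia in the list. Of 2983 genes at 50 CPM or more in either, 203 were higher in microglia by a factor of 4 or more, which is 6.81%, and 139 were higher in macrophages by that factor, which is 4.66%, again with 10 CPM added. These cells too were separated by the clustering on these genes. P2ry12 was 41.2 times as high in microglia (17.6 to 127), Tmem119 21.1 times (8.97 to 65.1), Cx3cr1 10.0 times (6.58 to 16.0), Sparc 8.94 times (5.39 to 16.0), Trem2 7.13 times (4.91 to 10.8) and Cst3 7.05 times (6.58 to 7.56). Of the 20 homeostatic genes, 17 were among the 203. Of the list members at 50 CPM or more in either, 3 of 18 phagocytic and 6 of 22 lysosomal genes were too. The counts were 0 of 11 complement, 0 of 8 pattern recognition and 0 of 18 motility genes. Higher in macrophages by that factor were 2 phagocytic and 2 complement genes, and no lysosomal, pattern recognition or motility gene.

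Several genes of microglia had no UMI in the 67 macrophages. The exact lower limit of the ratio was 9.24 for Arhgap5, 4.05 for the cathepsin gene Ctsf, 3.96 for Nav3, 3.82 for Slc2a5 and 3.69 for Asph. Sall1 in microglia stood at 3.93 times the floor of 3 counts over the macrophages, which is 36.1 CPM. Serpine2, a serine protease inhibitor gene, had 319 UMIs in microglia and 1 in macrophages, a ratio of 52.2 with an interval from 9.31 to 2069. Ldhb had 308 and 2, a ratio of 25.2 (6.92 to 209). Slc1a3, the glutamate transporter known from astrocytes, had 84 UMIs in microglia (166 CPM, 132 to 205) and none in macrophages, with a lower limit of 3.65. It was at 1753 CPM in astrocytes, 142 CPM in pericytes, 112 CPM in EPC and 9.74 CPM in VSMCA. The part of RNA from astrocytes in its level was not tested.

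Of the 12 border markers 10 were higher in macrophages by a factor of 4 or more, and of the 10 antigen presentation genes at 50 CPM or more in either group only the 3 class II chains were. Cd74, which is not on that list, was 103 times as high in macrophages (86.2 to 125), H2-Aa 354 times (178 to 824), H2-Ab1 170 times (105 to 294) and H2-Eb1 136 times (74.4 to 275). The platelet factor gene Pf4 was 88.6 times as high (39.1 to 248), Lyz2 15.3 times (13.5 to 17.4) and Apoe 9.37 times (8.80 to 9.99). Mrc1, the mannose receptor gene, had 35 UMIs in macrophages and none in microglia, with an exact lower limit of the ratio of 55.0. The chemokine gene Ccl17 had 22 and none, with a lower limit of 33.5. S100a6, Wfdc17 and Ccl5 completed the 10 genes with the lowest ratio. Complement C1q was shared, at 2.59 to 3.06 times the level of macrophages for its 3 chains, and Fcer1g at 1.15 times (1.01 to 1.32).

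**Figure D2:**
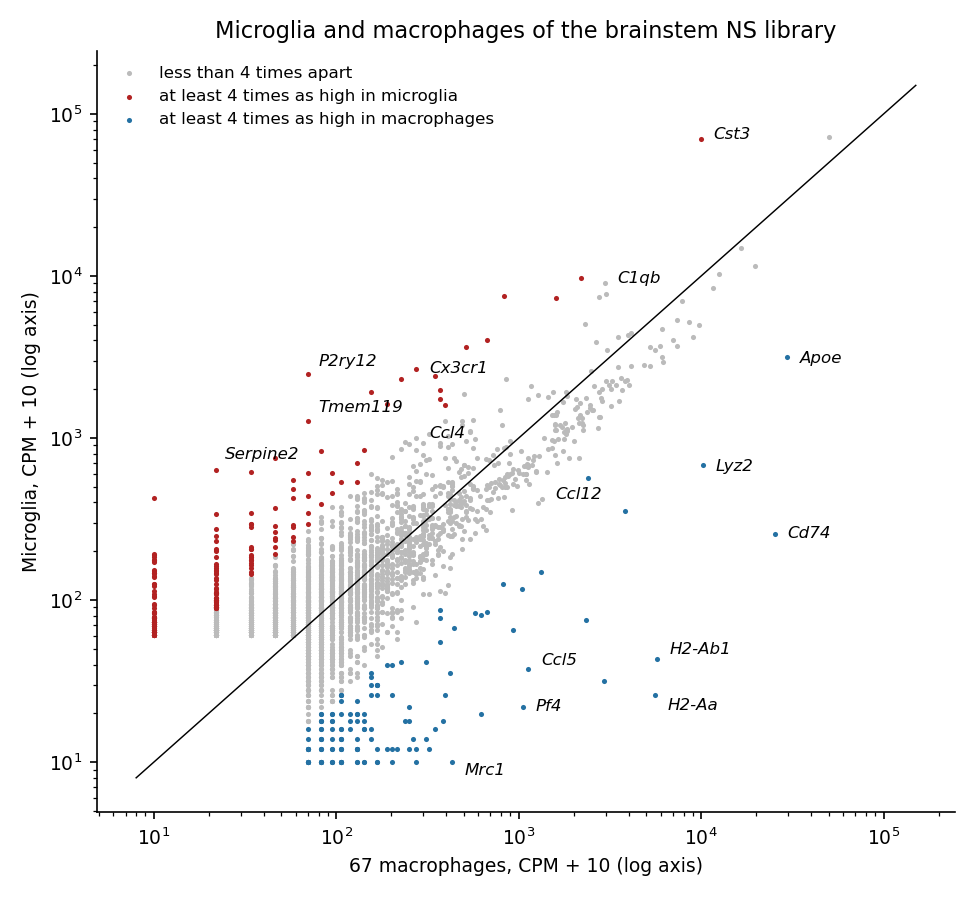
Each point is a gene at 50 CPM or more in either group, with its level in microglia on the vertical axis and in the 67 macrophages on the horizontal axis, both as CPM + 10 on log axes. Red points (203) are at least 4 times as high in microglia and blue points (139) at least 4 times as high in macrophages; the line marks equal levels, with P2ry12 far above it and Cd74, H2-Ab1 and Mrc1 far below.

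At least 1 UMI of any chemokine or cytokine gene of the list was found in 64.5% of microglia, while each of those named below was found in a minority. Of 21 genes on the list, 18 reached 10 CPM in either group. Of these, 7 were enriched, against 3.42% of the 9787 tested genes: Ccl3, Ccl4, Ccl6, Ccl9, Ccl12, Il1a and Il1b. Without the cell that held 47 of its 209 UMIs, Ccl12 was at 320 CPM against 72.9 CPM in the other listed cells. With 10 CPM added to both, it then fell just short of the limit. Igf1, also on this list, was lower. Ccl3 stood at 503 CPM (443 to 568) in 15.1% of microglia and Ccl12 at 412 CPM (358 to 472) in 13.7%. Ccl6 and Ccl9, also at 278 and 221 CPM, were found in 19.5% and 15.5% of the cells with no more than 6 UMIs in any cell. Il1a was at 63.1 CPM, Il1b at 49.3 CPM, Tnf at 31.5 CPM and Il6 at 9.86 CPM, in 4.74%, 2.37%, 2.00% and 0.911% of the cells.

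The spread of each gene was measured as a dispersion index, the squared deviation of a cell's count from the count expected at its depth, divided by that expected count and averaged over cells, which is 1 where counting noise is the whole spread. Over 2189 genes found in at least 5% of microglia the median index was 1.12, and 39 genes (1.78%) had an index of 2 or more. The index was 1.69 for Cx3cr1, 1.54 for P2ry12 and 1.29 for Tmem119, and of the 20 homeostatic genes Cst3 (10.2) and Gpr84 (2.45) were at 2 or more. The 15 genes with the highest index were Apoe (36.5), Malat1 (16.8), Ccl12 (16.7), Actb (12.9), Cst3 (10.2), Ccl4 (10.1), Ptgds (7.30), Klf2 (5.90), Ccl3 (5.28), Fos (4.94) and 5 mitochondrial genes. Single cells weigh on some of these values. Without the cell with most UMIs of the gene, the index of Ccl12 was 3.69 and that of Ptgds 2.61, that of Apoe was 24.4 and that of Ccl4 8.22. Ptgds was at 296 CPM in microglia and at 6206 CPM in pericytes. The index grows with the level and depth at a given spread. Thinning each cell to 500 UMIs left 14 of the 15 genes among the 15 highest. Cells of at least 1000 UMIs left 13, and microglia without a UMI of markers of other types left 12. In the latter, Ptgds was at 2.08, Apoe at 10.1 and Ccl12 at 1.59, below the limit of 2. Without the 15 cells rich in Apoe described below, the index of Apoe was 3.52.

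**Figure D3:**
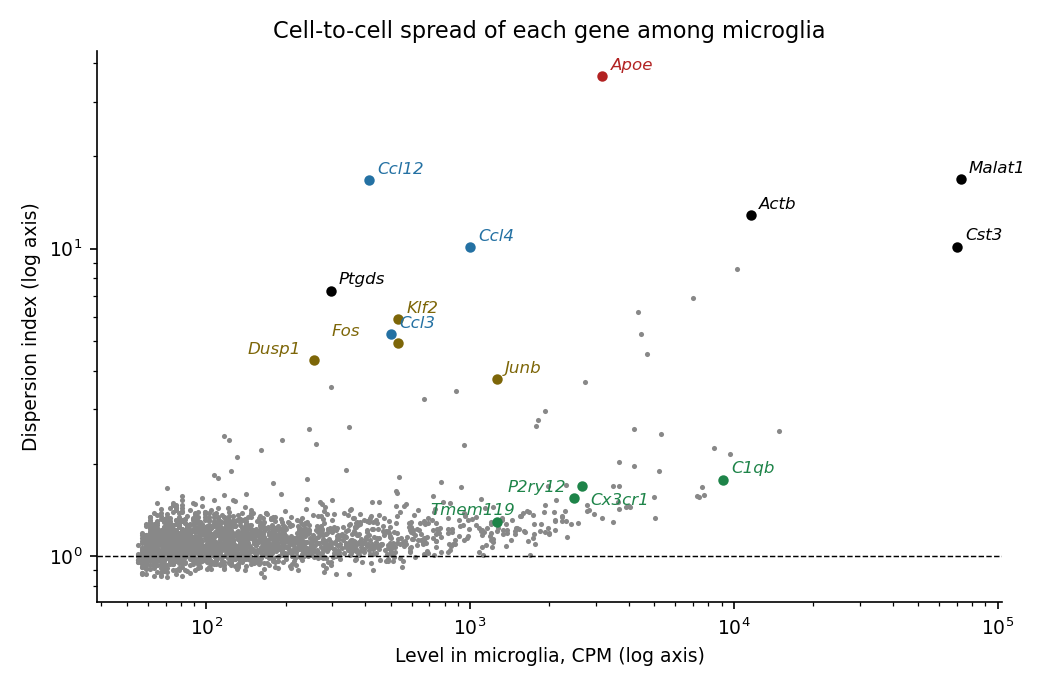
Dispersion index of 2189 genes found in at least 5% of the microglia against their level in CPM, both on log axes, with the dashed line at 1, the value for counting noise alone. Apoe (36.5), Ccl12 (16.7) and Ccl4 (10.1) stand above the 4 genes in green, Cx3cr1, P2ry12, Tmem119 and C1qb, which lie between 1.29 and 1.77. In microglia without a UMI of markers of other types, which are not drawn separately, Ccl12 was at 1.59.

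Apoe, which encodes the lipid carrier apolipoprotein E, was concentrated in few cells. It was absent from 273 microglia, present with 1 UMI in 146, and with 10 or more in 26, and the 10 cells with most of it held 52.2% of its 1608 UMIs. After thinning to 500 UMIs it was found in 36.0% of microglia, against 99.5% of astrocytes, 71.2% of macrophages, 57.4% of endothelial cells and 19.1% of VSMCA, the type with its lowest level (422 CPM). The share in microglia is thus below that of endothelial cells, so that single Apoe UMIs are not read as expression. In 15 cells, chosen after their values were seen, Apoe took 2% or more of all UMIs, up to 13.7%. The lowest of these was at 2.06% and the highest cell outside at 1.55%, and 7 cells lay between 1% and 2%. These 15 cells held 58.2% of the Apoe UMIs, and the remaining 534 had 1377 CPM.

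Other genes in the 15 cells were as follows, as a description of cells picked for Apoe. P2ry12 was at 574 CPM (287 to 1027) against 2553 CPM (2413 to 2698) in the other 534 microglia, Tmem119 at 365 CPM against 1303, Selplg at 835 against 2370 and Cst3 at 32938 against 71890. Trem2 (2453 against 2403 CPM) and Csf1r (1357 against 1602 CPM, intervals 887 to 1989 and 1492 to 1718) had overlapping intervals. Lyz2 was at 5011 CPM (4059 to 6120) against 500 CPM, Cd74 at 1201 CPM (761 to 1802) against 207 CPM and Cd63 at 1879 CPM against 678 CPM. Of the 15 cells 6 had neither a P2ry12 nor a Tmem119 UMI, compared with 45 of all 549. The median depth was 1114 UMIs in the 15 cells and 793 in the others. None of the 15 had a UMI of Mrc1 or Cd163, 14 of the 15 had none of Mrc1, Pf4, Cd163 and Lyve1, and neither of the astrocyte genes Aldoc and Slc1a2 was found in them. The 12 border markers summed to 5481 CPM in them against 1047 CPM in the others, and the 8 astrocyte markers to 261 against 389 CPM. Lyz2 gave 96 of the 105 border marker UMIs. One of the 15, the cell with the most Spp1 described below, held 54 of the 96, and without it Lyz2 stood at 2799 CPM (2017 to 3783) and the border markers at 3398 CPM in the other 14. Their part in the Apoe level was not tested.

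**Figure D4:**
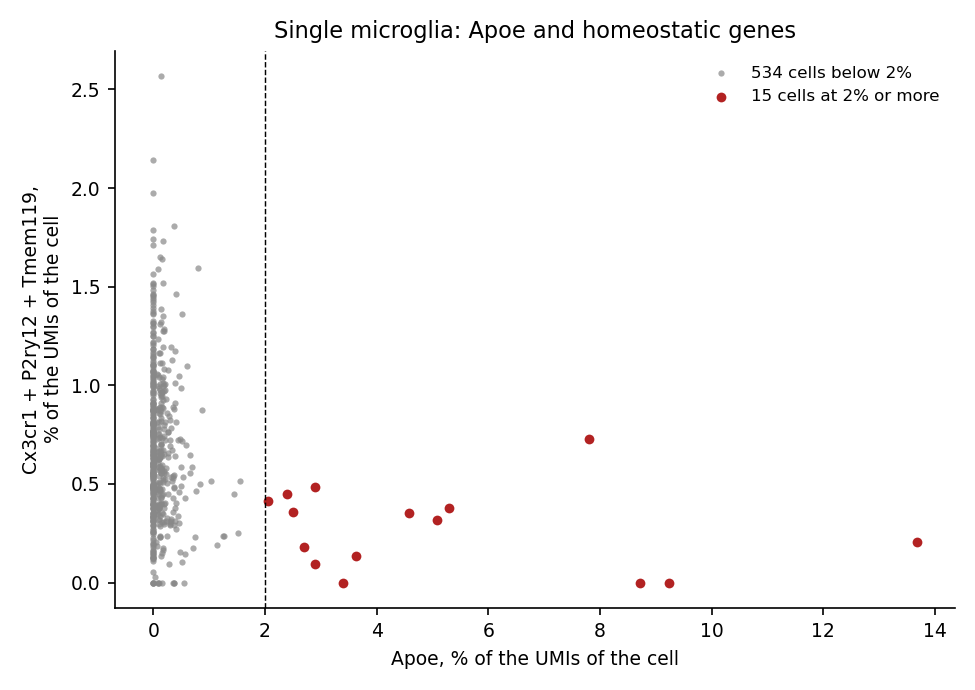
Each point is a microglial cell, with the share of its UMIs taken by Apoe on the horizontal axis and the share taken by Cx3cr1, P2ry12 and Tmem119 together on the vertical axis, both in percent. The 15 red cells hold 2% or more Apoe, up to 13.7%, and none of them exceeds 0.726% on the vertical axis. The grey cells, which are far more numerous, reach 2.57%, and many of them also lie below 0.726%.

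Of the disease-associated genes, Spp1, Gpnmb and Lpl came largely from single cells. The cell with the most UMIs of the group, 4150, held 128 of the 145 UMIs of Spp1, which encodes osteopontin, and 33 of the 34 of Gpnmb. It also held 120 UMIs of Apoe, 54 of Lyz2, 15 of Cd63, 10 of Trem2, 4 of Cst7 and 4 of Lpl, against 3 of Cx3cr1, 1 of P2ry12 and none of Tmem119, Mrc1 or Pf4. Without it, Spp1 fell from 286 to 33.8 CPM and Gpnmb from 67.0 to 1.99 CPM. Another cell held 17 of the 28 UMIs of Lpl, the lipoprotein lipase gene. Spp1 was at 1406 CPM in pericytes and 1640 CPM in glutamatergic neurons.

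Ccl3 and Ccl4, whose genes lie 13.2 kb apart on chromosome 11, were found together more often than depth gives. Ccl4 was absent from 457 microglia and reached 50 UMIs in a cell. Of the 83 cells with Ccl3 and the 92 with Ccl4, 42 held both, where independent detection at each cell's depth gives 16.0, a ratio of 2.63. Ccl12, on the same chromosome but farther away, was found with Ccl3 in 19 cells (13.1 given by depth) and with Ccl4 in 23 (14.5 given by depth). Cx3cr1 and P2ry12 were found together in 396 cells against 394 given by depth. Since they were found in 460 and 465 cells, the number with both could not exceed 460. This pair therefore sets no contrast to Ccl3 with Ccl4.

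Immediate early genes formed a further group that went together. Junb was at 1264 CPM (1168 to 1365), Jun at 881 CPM, Klf2 at 534 CPM, Fos at 532 CPM (471 to 600), Btg2 at 298 CPM, Dusp1 at 256 CPM, Zfp36 at 239 CPM and Atf3 at 122 CPM. Of the 20 genes on the list, 18 reached 10 CPM in either group. Of these, 4 were enriched, namely Junb, Zfp36, Ier5 and Atf3, and Klf4 was lower (13.8 CPM against 103). The shares of the 9787 tested genes were 3.42% and 6.18%. Fos was found in 70 cells, or 12.8% of microglia (10.1% to 15.8%). It was found with Atf3 in 20 cells (4.34 given by depth), with Dusp1 in 31 (7.87), with Klf2 in 36 (13.2), with Btg2 in 30 (11.8), with Zfp36 in 30 (12.2), with Junb in 55 (29.4) and with Jun in 45 (1.80 times the number given by depth). Fos was also found with Ccl4 in 31 cells (13.5 given by depth) and with Ccl3 in 27 (12.2), but with Ccl12 in 10 (11.1).

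In the 70 cells with a Fos UMI, Ccl4 stood at 3809 CPM (3400 to 4253) and in the other 479 at 445 CPM (384 to 514). Ccl3 stood at 1724 CPM against 264, Il1b at 241 CPM (147 to 372) against 11.8, Tnf at 121 CPM (57.8 to 222) against 14.1, Ccl12 at 699 CPM (531 to 904) against 356 (301 to 417), and Nfkbia, an inhibitor of NF-kappaB that NF-kappaB induces, at 1049 CPM against 198. Tmem119 was at 1181 CPM against 1284, Cx3cr1 at 2121 (1819 to 2459) against 2755 (2599 to 2918) and P2ry12 at 1977 against 2576. Apoe stood at 5002 CPM (4532 to 5507) in the cells with Fos against 2812. Of the 70 cells, 4 were among the 15 rich in Apoe, with Apoe at 5.30%, 5.08%, 2.90% and 2.06% of their UMIs. Their part in this Apoe level was not tested. The heat shock gene Hspa1a stood at 530 CPM (385 to 712) against 207, and Malat1 at 55396 CPM against 75827. The part of stress or RNA quality in the split was not tested. The cells with Fos had a median of 1022 UMIs and the others of 779. The 8 endothelial markers summed to 1639 CPM in the cells with Fos and 1497 CPM in the others, with overlapping intervals. Klf2 was at 1491 CPM in endothelial cells. The 5 erythroid genes summed to 2784 and 2790 CPM. The part of RNA from other cells in the split was not tested.

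**Figure D5:**
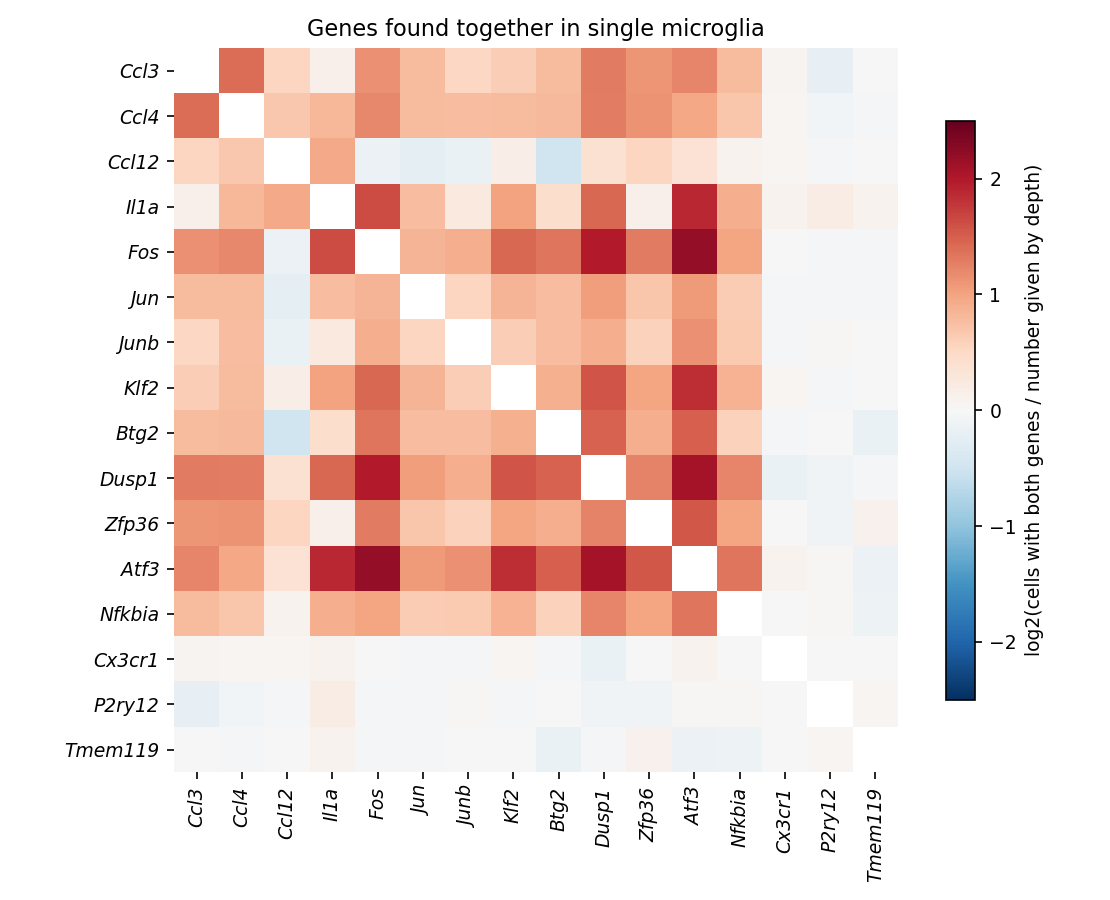
Pairs of genes found in the same microglial cell, as log2 of the number of cells with both genes over the number that detection at each cell's depth gives if the genes were independent. All pairs of an immediate early gene or Nfkbia with Ccl3 or Ccl4 lie above 0. Ccl12 lies below 0 with Fos, Jun, Junb and Btg2, and above 0 with Zfp36, Dusp1, Atf3, Klf2 and Nfkbia. Cx3cr1, P2ry12 and Tmem119 lie near 0 with all others. These genes were found in most microglia, which limits how far above 0 their pairs can lie.

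The same genes differed between shallow and deep cells. In the 273 cells below the median of 796 UMIs, Ccl4 was at 418 CPM (328 to 525), and in the 276 cells at or above it at 1305 CPM (1184 to 1434). Fos was at 192 and 714 CPM, Ccl3 at 271 and 627 CPM, Apoe at 1888 and 3857 CPM and Junb at 921 and 1447 CPM. P2ry12 went the other way, from 2961 CPM (2713 to 3226) in shallow cells to 2219 CPM (2061 to 2386) in deep cells, as did Malat1 from 89557 to 63341 CPM. The part of depth in these differences was not tested.

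Cells of all 9 libraries were counted by a rule of UMIs: at least 4 of 10 microglial genes found and none of 8 border macrophage genes. Among the 10 genes are Cx3cr1, P2ry12, Tmem119, Csf1r, Fcrls, Ctss, C1qa, C1qb and C1qc. The rule passed 538 of the 549 listed microglia (98.0%) and 57 of the other 1450 listed cells (3.93%), among them 18 endothelial cells and 8 macrophages, so that 90.4% of the listed cells that pass are microglia. The libraries are numbered by their order in the table, which says nothing of region or sleep group, and the brainstem NS library is number 7. It held 1069 passing cells, or 28.7% of its cells, and the other 8, which could not be assigned to a region or sleep group, from 29 to 774 with a median of 218. Whether the passing cells of the other 8 are microglia was not tested.

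In the brainstem NS library, 474 of the passing cells are not on the list used here. They were set beside the 595 listed cells that pass. Ccl4 stood at 714 CPM (648 to 784) in cells off the list and 869 CPM (796 to 946) in those on it, Fos at 370 and 493 CPM, Apoe at 2165 and 3340 CPM, Gpr34 at 1231 and 1596 CPM and Cst3 at 45653 and 60591 CPM. Hbb-bs was at 10376 CPM in cells off the list and 6422 CPM on it, and Mt1 at 3028 and 1147 CPM, with median depths of 861 and 838 UMIs. The part of this other RNA in the differences was not tested.

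Among all passing cells of the brainstem NS library, Ccl4 stood at 791 CPM (742 to 843), while the other 8 libraries ran from 166 to 1488 CPM with a median of 406. Ccl3 was at 394 CPM, with 0 to 390 CPM in the others, and Jun at 715 CPM, with 138 to 532 CPM in the others. Fos, at 432 CPM, and Junb, at 1039 CPM, lay within the ranges of the others, which reached 1065 and 1049 CPM. Hspa1a was at 194 CPM, with 11.0 to 64.6 CPM in the others, and Gpr34 at 1414 CPM, with 27.7 to 1298 CPM in the others. Apoe was at 2752 CPM, with 2284 to 14891 CPM in the others. RNA of other tissues differed between the passing cells of the libraries. The growth hormone gene Gh of the pituitary was at 107438, 108588 and 235006 CPM in the passing cells of libraries 4, 5 and 6 and at 0 in those of the brainstem NS library. Library 6 had only 29 passing cells. Their Gpr34 was at 27.7 CPM and their Cst3 at 8931 CPM, against 1414 and 53117 CPM in the passing cells of the brainstem NS library. The choroid plexus gene Ttr was at 37494 CPM in those of library 9. The median depth of the passing cells was 845 UMIs in the brainstem NS library and ran from 315 to 1067 UMIs in the others. The part of this RNA and of depth in the order of the libraries was not tested.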

How the data were processed

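The authors deposited UMI counts for each gene in each cell, whole numbers that carry no normalization, from the filtered output of Cell Ranger 2.2.0 on GRCm38; R 3.5.3 is also named in the submitters' processing notes, and the annotation release is not given in the sources used here. The table has 18634 genes and 29571 cells in 9 libraries. Cell types came from the study's own list, whose clusters rest on the same counts. The barcodes of that list put the library with microglia at place 7 in the table; the other 8 were left unassigned. The list used here holds the first 1999 cells. The counts were deposited after the filter of Cell Ranger, and no cell was removed; doublets were not called. UMIs were summed over cells and scaled to CPM, with exact Poisson intervals, exact Clopper-Pearson intervals for shares and exact conditional binomial intervals for ratios, at 95%. Ratios that sort genes used a pseudocount of 10 CPM, with genes of at least 10 CPM (50 CPM against macrophages) and a limit of 4 times. Dispersion was computed for genes in at least 5% of microglia. Codetection was compared with the sum over cells of the product of the 2 detection probabilities at the depth of each cell. Cells were thinned to 500 UMIs with a fixed seed. The scripts (Python 3.11.15, numpy 2.4.6, scipy 1.17.1, matplotlib 3.10.9) were tested on simulated data.

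Genes were named if they stood on a fixed list, or were among the 20 with most UMIs, the 15 with the highest ratio to other listed cells, the 10 at each end against macrophages or the 15 with the highest dispersion index. The members, markers and lists were chosen with earlier results of these data known. Of the list genes, 7 are not among the row names used and were not analysed here, and some genes that the naming rule picks are not reported here. Alternatives were cells of at least 1000 UMIs, totals that leave out mitochondrial and hemoglobin transcripts, averages of the CPM of single cells, cells without markers of other types, free RNA subtracted, a pseudocount of 1 CPM, other minimums of CPM and other numbers of rule genes. Leaving out the cell with the most Spp1 UMIs, or the 15 cells rich in Apoe, and leaving the former out of those 15, was chosen after seeing the data. Since 8 libraries could not be assigned to a group, no comparison between sleep groups was made.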

Additional observations from a re-analysis of the deposited data

How the results depend on the processing

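Libraries without replicates and intervals for counting error leave the spread between mice unknown, and a median of 796 UMIs per cell limits what can be said of rare transcripts. The summed level of the 20 homeostatic genes was 95441 CPM as reported, and 92661 CPM in the 169 microglia of at least 1000 UMIs, 99378 CPM with totals without mitochondrial and hemoglobin genes, 97059 CPM as a mean over cells, 103764 CPM in the 120 microglia without a UMI of 55 markers of other types, 91672 CPM with free RNA subtracted and 97437 CPM without the 15 cells rich in Apoe. Cst3 gave 70419 CPM of that sum. Single genes moved by over 1.5 times. In cells of at least 1000 UMIs, Ccl4 rose from 996 to 1612 CPM, Fos from 532 to 876, Apoe from 3170 to 4853, Spp1 from 286 to 604, Gpnmb from 67.0 to 140 and Lpl from 55.2 to 106. In microglia without markers of other types, Ccl4 was at 1522 CPM, Apoe at 2008, H2-Aa at 31.7 (15.8 as reported), Spp1 at 21.1, and Gpnmb and Lpl at 0. As means over cells, Spp1 was at 80.6 CPM, Gpnmb at 16.9 and Lpl at 22.1, and with free RNA subtracted Mt1 fell from 491 to 192 CPM and H2-Aa to 9.28 CPM. The number of genes enriched in microglia by a factor of 4 or more rose from 335 to 614, and that of genes lower by the same factor from 605 to 1957, with a pseudocount of 1 CPM. Against macrophages, the 203 genes higher in microglia became 328 with a pseudocount of 1 CPM and 385 with genes of at least 10 CPM. Genes with a dispersion index of 2 or more numbered 39, 67 in cells of at least 1000 UMIs and 21 after thinning to 500 UMIs. Cells that pass the rule fell from 3727 to 945 over all libraries and from 1069 to 392 in the brainstem NS library when only cells of at least 1000 UMIs were counted, since fewer cells remain. In cells without markers of other types the index of Ccl12 was 1.59 and that of Apoe 10.1. After thinning to 500 UMIs, the codetection ratio was 3.37 for Ccl3 with Ccl4 (2.63 unthinned) and 2.89 for Fos with Ccl4 (2.29 unthinned). It was 3.11 for Fos with Klf2 (2.72 unthinned) and 1.04 for Cx3cr1 with P2ry12 (1.01 unthinned). The other results compared are levels and counts, which have no direction to turn. No paired analysis was possible because 8 of the 9 libraries could not be assigned to a group.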

Other observations

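The following values were chosen after they were seen. Mag, a myelin protein gene used as an oligodendrocyte marker, had 9 UMIs in 9 microglia and 1 UMI in the other 1450 listed cells, and none in the cells listed as oligodendrocytes. Its neighbour on the minus strand of chromosome 7, Cd22, had 2 UMIs in microglia, and 1 cell held both.

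Gpr84, a receptor of medium-chain fatty acids, was found in 7.10% of microglia at 116 CPM (88.5 to 150) and at 2.30 CPM in the other listed cells, with a dispersion index of 2.45, against 1.11 for Slc2a5.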
